A study of Homo sapiens with 12 samples.

Results

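The genes described here encode actin, proteins that bind it, and SRF (serum response factor), the transcription factor that drives many of them. They were 10 named genes, taken from the count table by matching its Ensembl identifiers to GENCODE symbols, of 62703 entries in all: ACTB, ACTG1, ACTA2, CFL1, PFN1, TPM1, TPM4, VCL, MYH9 and SRF. All 10 passed the filter on low counts, which kept 15920 entries of the table. RNA-seq had been run on HCT116 cells, an epithelial colorectal cancer cell line, 48 h after transfection of hnRNP U siRNA or control siRNA. The labels give the silenced cells the genotype HNRNPU silencing and the control cells the genotype wild-type. Total RNA and heavy polysomal (HP) RNA, the RNA sedimenting with many ribosomes, were sequenced with 3 libraries for each of the 4 conditions. The experiments used 1 cell line and an acute loss of hnRNP U, and no library measured protein. Which of the study's hnRNP U siRNA sequences was used for the libraries is not stated. Effects of the siRNA beyond the loss of hnRNP U were not tested.

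Actin monomers assemble into filaments that shape the cell, move it and, with myosin, contract. Monomer-binding proteins such as profilin and cofilin set how fast filaments turn over, tropomyosins coat them, and vinculin ties them to adhesion sites. SRF binds the CArG box of DNA. It works with the myocardin-related transcription factors (MRTFs), which actin monomers hold back in the cytoplasm, or with ternary complex factors (TCFs) downstream of growth factor signals. hnRNP U is an RNA- and DNA-binding protein known mostly from the nucleus. The study also found it in cytosolic and microsomal fractions and sedimenting with polysomes. hnRNP U has been reported to bind nuclear actin, which is why these genes were looked at together.

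Sequences upstream of the members were searched for the letters of an SRF site close to a start. The CArG box, in which CC and GG flank a run of A or T (10 bases in all, and the same pattern on both strands), was sought in the RefSeq promoter windows of GRCh38.p14, from 250 bases before to 50 bases after a start site. Windows existed for 9 members. SRF, ACTG1 and TPM4 held the box, and their stretches are shown 5′ to 3′ on the gene's strand with the boxes in capitals.
SRF promoter: CCATATAAGGagcggcctcgCCATAAAAGG
ACTG1 promoter: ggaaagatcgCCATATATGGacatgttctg
TPM4 promoter: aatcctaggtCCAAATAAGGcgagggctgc
The SRF stretch lies at chr6:43171239-43171268 on the plus strand, the ACTG1 stretch at chr17:81512874-81512903 on the minus strand and the TPM4 stretch at chr19:16067355-16067384 on the plus strand. The boxes begin 30 and 10 bases before the SRF start, 94 bases before the ACTG1 start and 173 bases before the TPM4 start. Of all 27305 genes with a window, 1.6% held a box. A match is a description of letters and no sign of binding here. Only the exact pattern was sought, so a window without a match does not show that SRF sites are absent. As the values below show, ACTG1 fell in both fractions and TPM4 was not called in the main fits. SRF rose in total RNA only, a call that depended on the setting.

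HNRNPU, the siRNA's target, was lower in every hnRNP U siRNA library than in any control library. It had 158.9 ± 9.44 CPM (counts relative to the TMM-adjusted library size, SD, n = 3) with hnRNP U siRNA and 1028 ± 67.7 CPM (SD, n = 3) with control siRNA in total RNA. In HP RNA it had 78.3 ± 3.71 CPM with hnRNP U siRNA and 1080 ± 61.7 CPM with control siRNA (SD, n = 3 each). Library totals ran from 30305012 to 39761103 counts. The 5 epithelial markers (EPCAM, KRT8, KRT18, KRT19, CDH1) were all above 1 CPM in every condition, and none of the leukocyte, endothelial or striated muscle markers was.

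**Figure D1:**
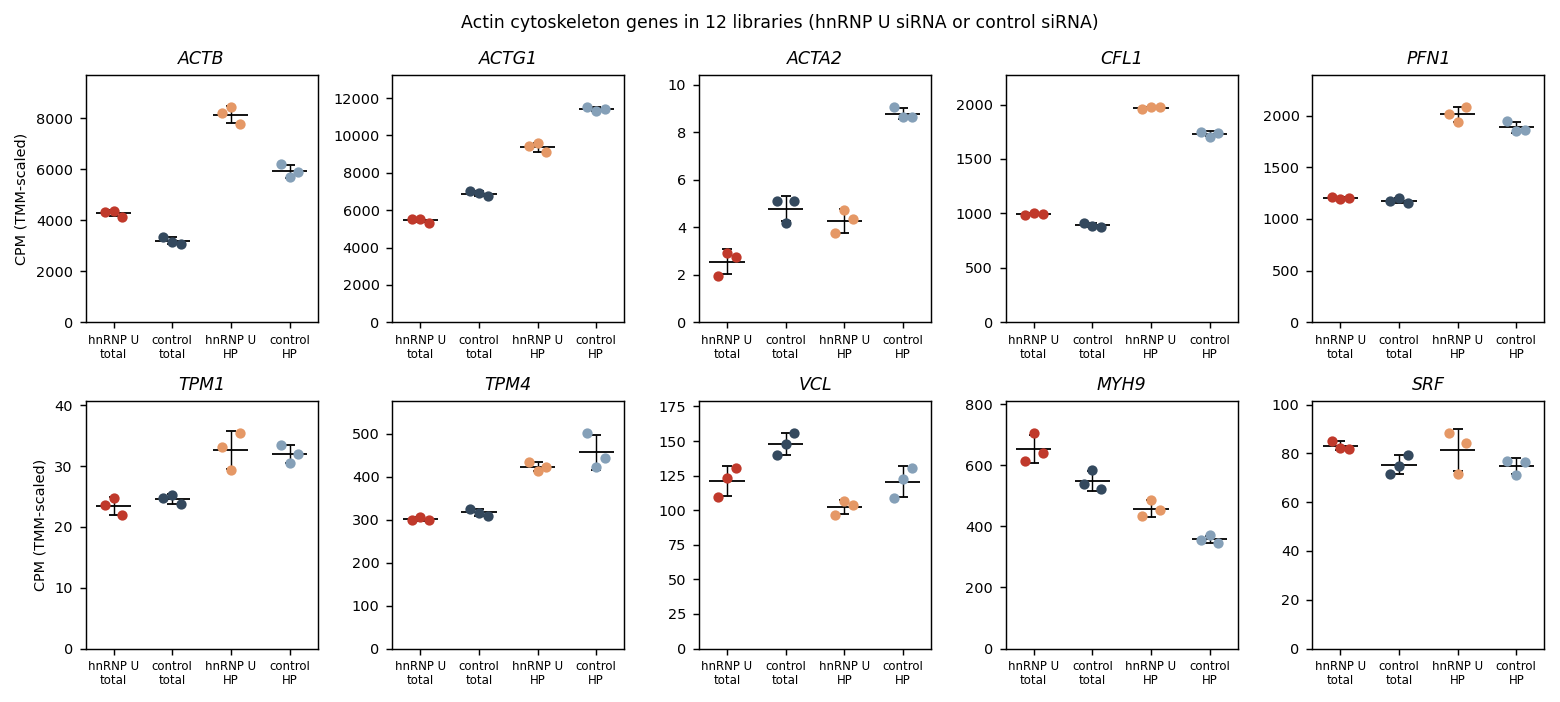
Level of each of the 10 genes in each of the 12 libraries (TMM-scaled CPM, each vertical axis from 0) by siRNA and RNA fraction. Points are libraries, lines are means and bars are SD (n = 3). In both fractions ACTB and MYH9 points with hnRNP U siRNA lie above those with control siRNA, and ACTG1, ACTA2 and VCL points lie below.

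The siRNA moved the actin genes in opposite directions. In total RNA, 7 of the 10 members passed the threshold (adjusted p under 0.05, edgeR's quasi-likelihood test, adjusted over all genes tested), against a background of 57.3% of all genes tested (28% higher and 29.3% lower). ACTB, MYH9, CFL1 and SRF rose, and ACTA2, ACTG1 and VCL fell. The median log2 fold change was −0.024 over the members and 0 over all genes tested. In HP RNA 6 members passed, 3 in each direction, against a background of 51.7% (25.5% higher and 26.3% lower), and SRF was the one no longer called. These shares stand close to the background, so the members are described one by one. The plot of fold changes sets the fractions side by side.

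**Figure D2:**
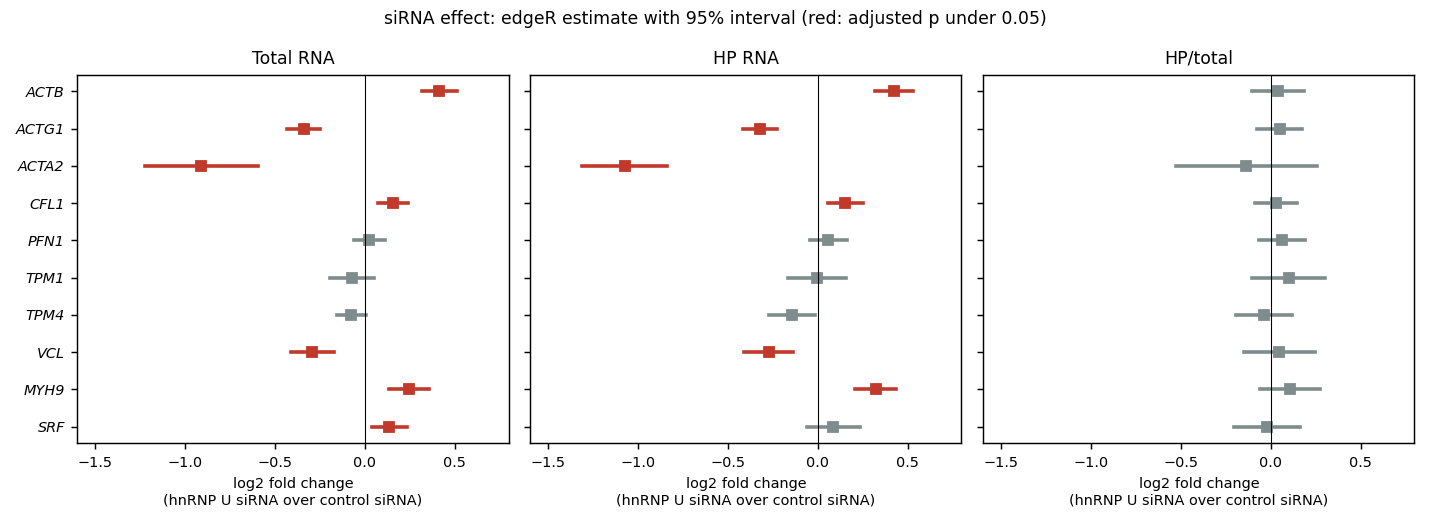
log2 fold change of hnRNP U siRNA over control siRNA for each member, with panels for total RNA, HP RNA and the ratio of HP to total RNA. Squares are edgeR estimates, lines are 95% intervals and red marks an adjusted p under 0.05. Every interval of the ratio spans 0.

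ACTB and ACTG1 encode the cytoplasmic β- and γ-actin, which differ in few residues and make up most actin of non-muscle cells. ACTB (ENSG00000075624, chr7:5526409-5563902 of GRCh38, minus strand) had 4321, 4374 and 4133 CPM in total RNA with hnRNP U siRNA and 3361, 3162 and 3077 CPM with control siRNA. It rose by 0.41 on the log2 scale (SE 0.05, edgeR adjusted p = 1.1e-06). Its HP RNA level was 8201, 8444 and 7783 CPM with hnRNP U siRNA and 6199, 5689 and 5879 CPM with control siRNA, a log2 fold change of 0.42 (SE 0.05, edgeR adjusted p = 1.6e-06). The groups did not overlap in either fraction, and all 6 silenced libraries were the high ones.

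ACTG1 (ENSG00000184009, chr17:81509413-81523847, minus strand), whose promoter holds the CArG box shown above, went the other way. It had 5517, 5545 and 5327 CPM in total RNA with hnRNP U siRNA and 7008, 6920 and 6744 CPM with control siRNA, a log2 fold change of −0.34 (SE 0.04, edgeR adjusted p = 5.1e-06). In HP RNA it had 9447, 9579 and 9113 CPM with hnRNP U siRNA and 11530, 11330 and 11420 CPM with control siRNA, a log2 fold change of −0.32 (SE 0.05, edgeR adjusted p = 1.2e-05). Here too the groups did not overlap. ACTG1 had more counts than ACTB in all 12 libraries.

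The balance of the pair was then taken within each library, where library scaling cancels out. This ratio and the pair's sum were chosen after the values were seen. ACTB had 0.783, 0.789 and 0.776 counts per ACTG1 count in total RNA with hnRNP U siRNA, and 0.480, 0.457 and 0.456 with control siRNA. In HP RNA the ratio was 0.868, 0.881 and 0.854 with hnRNP U siRNA, and 0.537, 0.502 and 0.515 with control siRNA. The log2 ratio between siRNAs was 0.75 in total RNA and 0.74 in HP RNA. In each fraction the exact two-sided permutation test gave p = 0.1, the smallest that 3 against 3 libraries allow. ACTB and ACTG1 were already separated between siRNAs in opposite directions. That fixed this outcome in advance, so the p-value adds no support.

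The counts of both genes together took 1.03%, 1.04% and 0.997% of the total RNA libraries with hnRNP U siRNA and 1.08%, 1.02% and 1.02% with control siRNA. In HP RNA they took 1.66%, 1.68% and 1.62% with hnRNP U siRNA and 1.75%, 1.65% and 1.69% with control siRNA. The sums overlapped between siRNAs in both fractions (exact permutation p = 0.6 for total RNA and 0.4 for HP RNA), while the share held by ACTB did not. ACTB made up 43.9% ± 0.2 of the pair with hnRNP U siRNA and 31.7% ± 0.61 with control siRNA in total RNA (SD, n = 3 each). In HP RNA it made up 46.5% ± 0.4 with hnRNP U siRNA and 34.1% ± 0.81 with control siRNA (SD, n = 3 each).

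**Figure D3:**
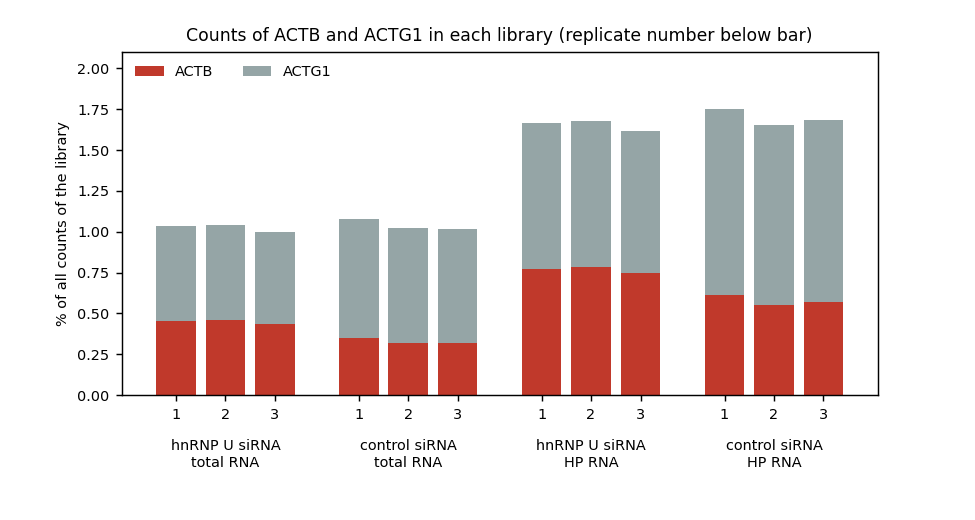
Counts of ACTB (red) and ACTG1 (grey) as a percentage of all counts in each of the 12 libraries, stacked, with the replicate number under each bar. Bar heights overlap between siRNAs within a fraction (1.02% with hnRNP U siRNA and 1.04% with control siRNA on average in total RNA), while the red part is taller in the hnRNP U siRNA bars.

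ACTA2 (ENSG00000107796, chr10:88935074-88991339, minus strand) encodes α-actin of smooth muscle and was the weakest member, with 70 to 335 counts per library. It had 1.96, 2.93 and 2.77 CPM in total RNA with hnRNP U siRNA and 5.10, 4.16 and 5.11 CPM with control siRNA, a log2 fold change of −0.91 (SE 0.15, edgeR adjusted p = 6.2e-05). Its level in HP RNA was 3.74, 4.71 and 4.35 CPM with hnRNP U siRNA and 9.07, 8.66 and 8.65 CPM with control siRNA, a log2 fold change of −1.08 (SE 0.11, edgeR adjusted p = 3.5e-07). The lowest control library stood above the highest silenced library of the same fraction. This was the largest change of any member.

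Of the 5 smooth muscle markers, only DES exceeded 1 CPM and MYOCD had no count in any library. Their summed level was 2.54 to 3.14 CPM with hnRNP U siRNA and 1.40 to 1.94 CPM with control siRNA in total RNA, the opposite direction to ACTA2. In HP RNA it was 5.45 to 6.34 CPM with hnRNP U siRNA and 2.70 to 3.27 CPM with control siRNA. The 5 fibroblast markers, of which only COL1A1 exceeded 1 CPM, summed to 9.71 to 10.7 CPM with hnRNP U siRNA and 16.4 to 17.8 CPM with control siRNA in total RNA. In HP RNA they summed to 6.86 to 8.68 CPM with hnRNP U siRNA and 14.1 to 16.4 CPM with control siRNA. All libraries came from 1 cell line, and the fibroblast markers DCN and LUM had no count in any of them. Whether the marker sums relate to the change of ACTA2 was not tested. In bulk RNA, fewer cells with ACTA2 RNA and less of it per cell cannot be told apart.

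ACTA2 lies across from 2 other coding genes. FAS, the death receptor gene, overlaps its exons on the opposite strand by 387 bases and had 401% of its counts, and STAMBPL1 lies in the same stretch with no exonic base shared. Both rose. The log2 fold changes were 0.37 in total RNA and 0.44 in HP RNA for FAS, and 0.61 in total RNA and 0.65 in HP RNA for STAMBPL1. The strand setting of the counts is not given in the sources used here, and without strand reads of such a pair cannot be told apart. The share of ACTA2's 75-base windows found in another transcript was 26.7%, all in the antisense gene ACTA2-AS1, which had 1.19% of its counts.

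CFL1 and PFN1 encode cofilin, which severs and depolymerizes filaments, and profilin, which loads monomers onto growing ends. CFL1 (ENSG00000172757, chr11:65823022-65862026, minus strand) had 981.4, 1005 and 998.8 CPM in total RNA with hnRNP U siRNA and 911.1, 884.4 and 874.7 CPM with control siRNA. The rise was small, at 0.16 on the log2 scale (SE 0.04, edgeR adjusted p = 0.003), but the groups did not overlap. In HP RNA CFL1 had 1962, 1979 and 1977 CPM with hnRNP U siRNA and 1751, 1706 and 1735 CPM with control siRNA, a log2 fold change of 0.15 (SE 0.05, edgeR adjusted p = 0.0089).

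PFN1 (ENSG00000108518, chr17:4945652-4949061, minus strand) had 1209, 1197 and 1198 CPM in total RNA with hnRNP U siRNA and 1171, 1205 and 1155 CPM with control siRNA. The groups overlapped, and the 95% interval of the log2 fold change ran from −0.06 to 0.11. In HP RNA the interval ran from −0.05 to 0.16, with 2015, 1939 and 2085 CPM with hnRNP U siRNA and 1951, 1855 and 1857 CPM with control siRNA. PFN1 shared 13.5% of its windows with other transcripts, among them its pseudogene PFN1P1, and all its pseudogenes together held 0.111% as many counts.

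The tropomyosins, which run along the filament and control access of myosin and cofilin, did not pass the threshold as members. TPM1 (ENSG00000140416, chr15:63042620-63071915, plus strand) had 23.5, 24.8 and 21.9 CPM in total RNA with hnRNP U siRNA and 24.8, 25.2 and 23.7 CPM with control siRNA. Its log2 fold change had a 95% interval from −0.20 to 0.05 in total RNA and from −0.17 to 0.16 in HP RNA. In HP RNA it had 33.2, 29.3 and 35.4 CPM with hnRNP U siRNA and 33.4, 30.5 and 32.0 CPM with control siRNA, so the groups overlapped in both fractions.

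TPM4 (ENSG00000167460, chr19:16067021-16103002, plus strand), which also has a CArG box, had 300.2, 306.4 and 298.7 CPM in total RNA with hnRNP U siRNA and 325.5, 315.8 and 309.5 CPM with control siRNA. The groups did not overlap, but the log2 fold change of −0.08 (SE 0.04) had an edgeR adjusted p of 0.11. The HP values were 434.9, 412.8 and 422.7 CPM with hnRNP U siRNA and 501.5, 423.6 and 444.5 CPM with control siRNA, a log2 fold change of −0.14 (SE 0.06, edgeR adjusted p = 0.054). Its call in HP RNA depended on the setting. It passed without control siRNA HP replicate 2 (log2 fold change −0.20, edgeR adjusted p = 0.01), with no filter on low counts (−0.15, edgeR adjusted p = 0.018) and with the experiment as replicate block (−0.14, edgeR adjusted p = 0.0048). TPM4 shared 15% of its windows with other transcripts, mostly of its pseudogenes.

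VCL encodes vinculin, which links filaments to integrin adhesions and cell junctions. The gene (ENSG00000035403, chr10:73995193-74121363, plus strand) had 109.5, 123.5 and 130.2 CPM in total RNA with hnRNP U siRNA and 139.8, 147.7 and 155.7 CPM with control siRNA, a log2 fold change of −0.29 (SE 0.06, edgeR adjusted p = 0.00036). The HP libraries had 96.5, 106.4 and 103.8 CPM with hnRNP U siRNA and 108.8, 122.4 and 130.6 CPM with control siRNA, a log2 fold change of −0.27 (SE 0.06, edgeR adjusted p = 0.0017). All silenced libraries lay below all control libraries of their fraction. AP3M1, an adaptor complex gene on the opposite strand that shares 1109 exonic bases with VCL and had 84.7% as many counts, fell as well, by 0.18 in total RNA and by 0.20 in HP RNA on the log2 scale. Its part in the VCL value was not tested.

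MYH9 encodes the heavy chain of non-muscle myosin IIA, the motor that contracts actin bundles. The gene (ENSG00000100345, chr22:36281280-36388010, minus strand) had 615.0, 705.3 and 640.7 CPM in total RNA with hnRNP U siRNA and 539.1, 585.8 and 523.8 CPM with control siRNA. It rose by 0.25 on the log2 scale (SE 0.05, edgeR adjusted p = 0.00084). HP RNA had 433.1, 487.1 and 454.0 CPM with hnRNP U siRNA and 355.8, 370.6 and 346.4 CPM with control siRNA, a log2 fold change of 0.32 (SE 0.05, edgeR adjusted p = 7.5e-05). The groups did not overlap, and replicate 2 was the highest of each group.

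SRF (ENSG00000112658, chr6:43171269-43181506, plus strand) changed least among the members called. In total RNA it had 85.3, 82.4 and 81.9 CPM with hnRNP U siRNA and 71.7, 74.99 and 79.4 CPM with control siRNA, a log2 fold change of 0.14 (SE 0.05, edgeR adjusted p = 0.016). This call was lost without hnRNP U siRNA total replicate 1 (log2 fold change 0.12, edgeR adjusted p = 0.052), without control siRNA total replicate 1 (0.10, edgeR adjusted p = 0.06) and with all 12 libraries in 1 fit (0.14, edgeR adjusted p = 0.062). In HP RNA SRF had 88.3, 71.7 and 84.1 CPM with hnRNP U siRNA and 77.0, 71.0 and 76.5 CPM with control siRNA. Those groups overlapped (log2 fold change 0.09, edgeR adjusted p = 0.32), and the change passed only without hnRNP U siRNA HP replicate 2 (0.17, edgeR adjusted p = 0.041).

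SRF was also the only member whose canonical transcript held an RNA G-quadruplex (RG4) motif, the fold that the study follows. Any 4 runs of G, each 3 bases or longer and parted by 1 to 7 bases, counted as a motif. Of the 12758 protein-coding genes tested, 26.7% had one in the canonical transcript. For its transcriptome-wide comparisons the study took RG4s from published experimental sets and from prediction scores. It also precipitated selected mRNAs with an RG4 antibody, imaged RG4s with a probe and used reporters with altered RG4s. Whether the members belong to the published or predicted sets was not examined here. SRF had 3, shown 5′ to 3′ with the runs of G in capitals.
SRF coding sequence: GGGacacgcGGGGctaacGGGGGccGGG
SRF first 3′ UTR motif: GGGGttGGGGtGGGaGGG
SRF next 3′ UTR motif: GGGtGGGGtctGGGaGGGGG
They lie on the plus strand of GRCh38 at chr6:43171759-43171786, chr6:43180260-43180277 and chr6:43180382-43180401. With any annotated transcript counted, 6 of the 10 members had a motif, against 44.6% of the genes tested. The ratio of HP to total RNA of SRF did not pass the test for a difference between siRNAs.

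The ratio of HP to total RNA asks whether hnRNP U siRNA moved an mRNA in polysomes beyond its move in total RNA, relative to other mRNAs. Each library was scaled to its own size, so a shift shared by all mRNAs would not appear. The paper reports that silencing altered the polysome profile slightly. No member passed (0 of 10, and 0 at an unadjusted p under 0.05, edgeR's quasi-likelihood test of the interaction; DESeq2 also called 0), against a background of 0.163% of all genes tested (0.0817% higher and 0.0817% lower). The estimates ran from −0.14 for ACTA2 to 0.11 for MYH9 on the log2 scale, with a median of 0.04 over the members and 0.04 over all genes tested. For ACTB the 95% interval ran from −0.11 to 0.19, and for ACTG1 from −0.08 to 0.18. ACTA2 had the widest interval, from −0.53 to 0.26, and MYH9 had the smallest adjusted p, at 0.84 from edgeR. HNRNPU itself had a log2 fold change of −1.09 in this ratio (edgeR adjusted p = 2.3e-07).

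Within each siRNA, the members took very different places in heavy polysomes. Under hnRNP U siRNA 7 members were higher and 2 lower in HP RNA than in total RNA, against a background of 68.1% of all genes called (34.4% higher and 33.7% lower). Under control siRNA it was also 7 higher and 2 lower, against 65.1% (33.1% higher and 32% lower). CFL1 had the largest enrichment, with a log2 ratio of 0.96 (SE 0.04) with hnRNP U siRNA and 0.96 (SE 0.05) with control siRNA. ACTB followed at 0.91 with hnRNP U siRNA and 0.89 with control siRNA, then ACTG1 at 0.76 with hnRNP U siRNA and 0.73 with control siRNA, and PFN1 at 0.72 with hnRNP U siRNA and 0.68 with control siRNA. ACTA2 had 0.71 with hnRNP U siRNA and 0.87 with control siRNA, on few counts.

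Both tropomyosins were moderately enriched. TPM4 had log2 ratios of 0.47 with hnRNP U siRNA and 0.53 with control siRNA, and TPM1 had 0.46 with hnRNP U siRNA and 0.38 with control siRNA. The members lower in HP RNA were VCL, at −0.27 with hnRNP U siRNA and −0.29 with control siRNA, and MYH9, at −0.54 with hnRNP U siRNA and −0.62 with control siRNA. SRF had −0.06 with hnRNP U siRNA and −0.01 with control siRNA and was not called in either. With upper-quartile scaling its ratio under hnRNP U siRNA became −0.14 (edgeR adjusted p = 0.046). As HP and total RNA were scaled apart, these ratios are relative to other mRNAs and not amounts per cell.

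The 2 members depleted from HP RNA have the longest coding sequences, MYH9 with 5880 bases and VCL with 3402. The genes tested were therefore split by coding length, after the values were seen. For the 647 genes of 4800 bases or more the median log2 ratio of HP to total RNA was −0.33 with hnRNP U siRNA and −0.32 with control siRNA. For the 3616 genes from 600 to 1200 bases, which include the 3 actins and both tropomyosins, it was 0.24 with hnRNP U siRNA and 0.25 with control siRNA. ACTB, ACTG1 and ACTA2 stood above the upper quartile of that class (0.61 with hnRNP U siRNA and 0.59 with control siRNA), and TPM1 and TPM4 lay inside its quartiles. VCL falls in the class from 2400 to 4800 bases, whose median was −0.05 with either siRNA. The lower quartile of this class was −0.267 with hnRNP U siRNA and −0.269 with control siRNA. VCL, at −0.267 with hnRNP U siRNA and −0.292 with control siRNA, stood at or below that quartile.

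CFL1 and PFN1 departed most from genes of their own length. Their coding sequences of 498 and 420 bases fall in the class under 600 bases, whose median was −0.16 with hnRNP U siRNA and −0.18 with control siRNA, and whose upper quartile was 0.31 with hnRNP U siRNA and 0.28 with control siRNA. Both genes were above that quartile under either siRNA. MYH9 stood below its class median and within the quartiles with hnRNP U siRNA, and below the lower quartile of −0.52 with control siRNA. The plot of polysome ratio by coding length shows the members over these classes.

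**Figure D4:**
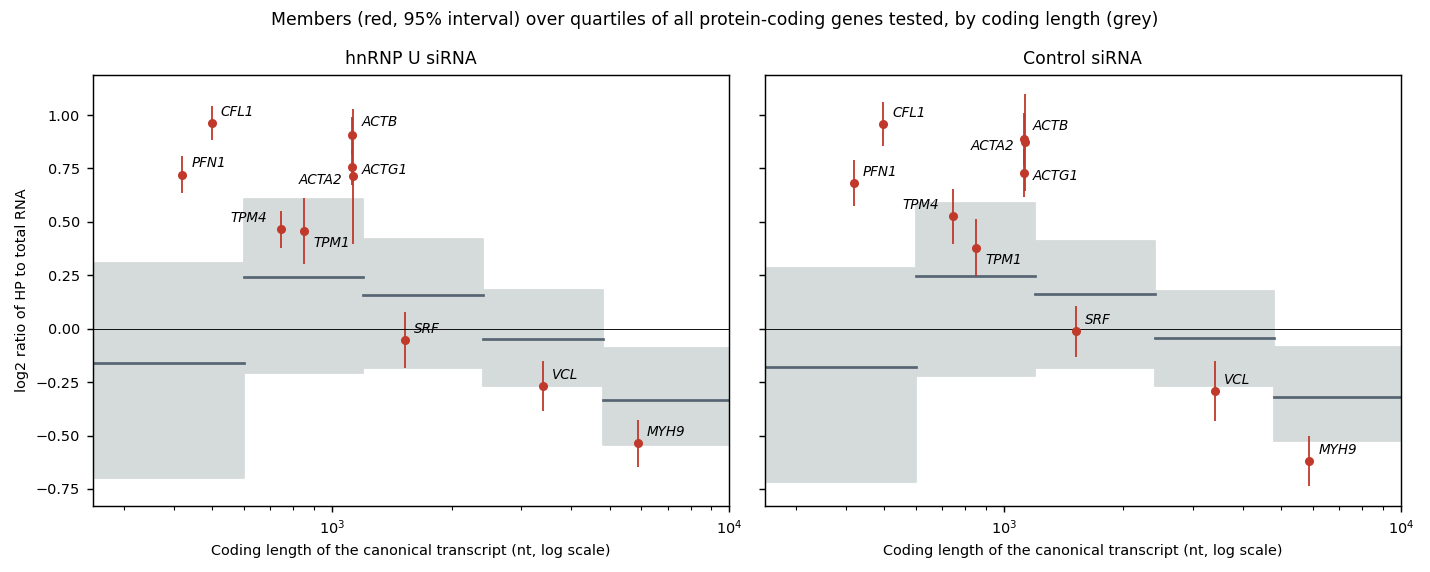
log2 ratio of HP to total RNA (vertical axis) against the coding length of the canonical transcript in bases (log axis) for the members, with hnRNP U siRNA left and control siRNA right. Red points are members with 95% intervals, grey boxes span the quartiles of all protein-coding genes tested in each length class and dark lines are medians. CFL1, PFN1 and the 3 actins lie above the boxes in both panels.

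Levels of different genes were compared per kb of merged exons. In total RNA with hnRNP U siRNA the order was ACTG1 (1349 ± 29.4 CPM per kb), ACTB (970.7 ± 28.8), PFN1 (751.4 ± 4.25), CFL1 (169.6 ± 2.08), MYH9 (38.4 ± 2.74), TPM4 (24.4 ± 0.329), SRF (19.7 ± 0.428), VCL (12.1 ± 1.06), TPM1 (1.59 ± 0.0988) and ACTA2 (0.453 ± 0.0927, all CPM per kb, SD, n = 3). With control siRNA PFN1 (736.0 ± 16.1 CPM per kb) and ACTB (726.4 ± 33.04 CPM per kb) were neighbours that did not differ beyond their spread. Per kb of the canonical transcript, ACTB stood above PFN1 in both, and TPM1, with long merged exons, came out close to SRF and VCL. The order of the lowest members thus depended on the length used.

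Other genes of the actin system were read from 13 lists that hold 172 genes beside the members, of which 161 were tested. In total RNA 36 rose and 70 fell, together 65.8%, with a median log2 fold change of −0.07, against 57.3% called (28% higher and 29.3% lower) and a median of 0 over all genes tested. In HP RNA 31 rose and 65 fell, together 59.6%, with a median of −0.10, against 51.7% called (25.5% higher and 26.3% lower) and a median of 0.007 over all genes tested. These differences from the background were not tested. The counts given below for single lists stand against the same shares over all genes and were not tested either. The plot of the lists shows falls and rises inside nearly every one. Without a block, no gene of the lists was called in HP/total by edgeR or by DESeq2, and 5 of 161 had an unadjusted p under 0.05 from edgeR. With a block edgeR called ACTR5 and TMSB4X, described with the nuclear actin genes.

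**Figure D5:**
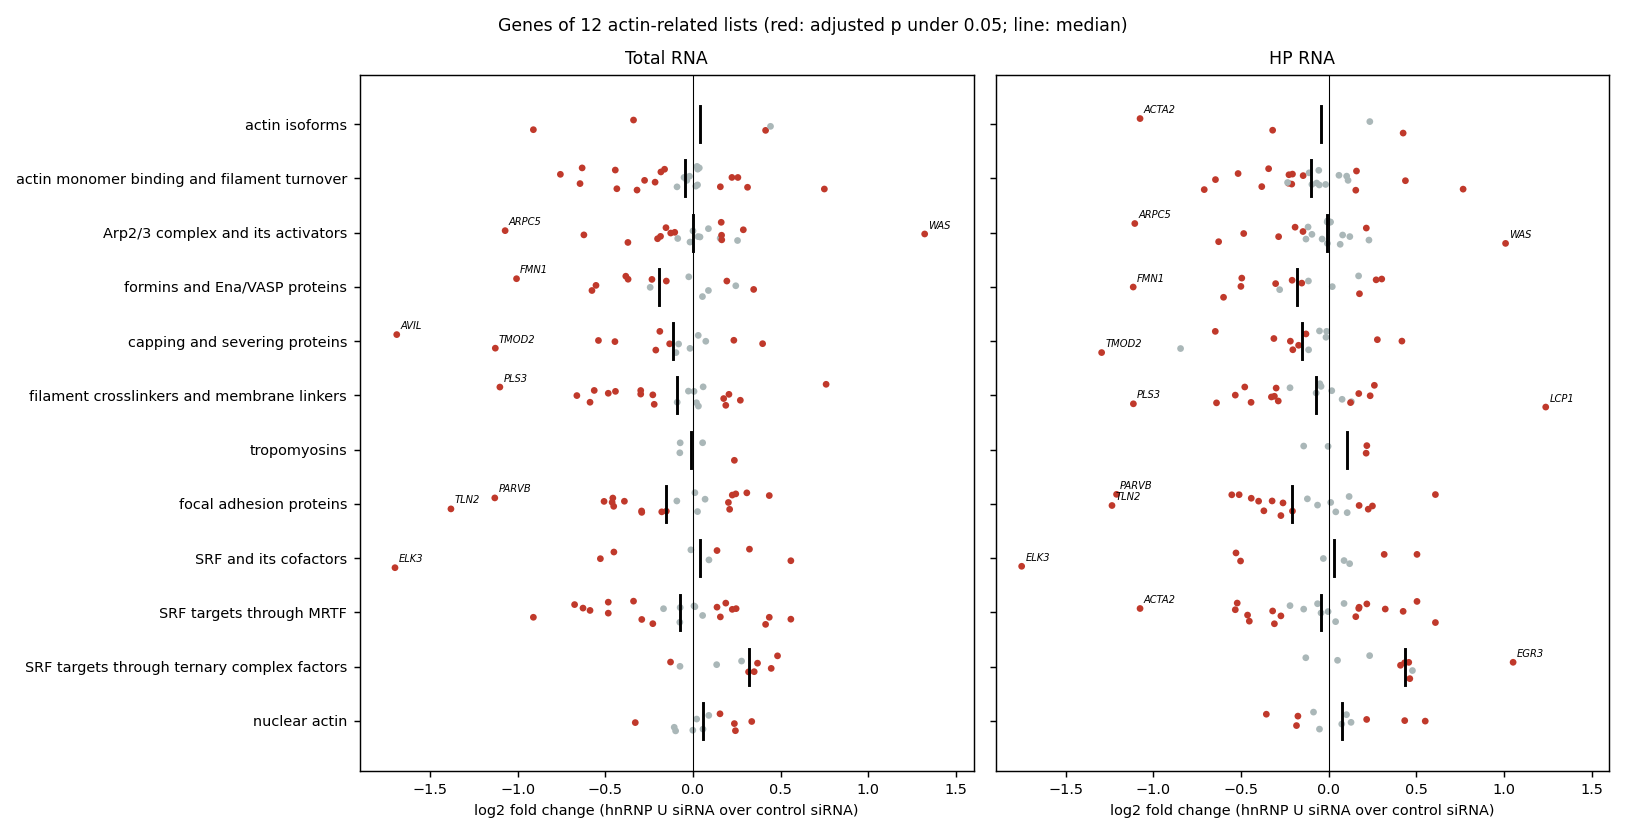
log2 fold change of hnRNP U siRNA over control siRNA for each tested gene of 12 of the 13 lists in total RNA (left) and HP RNA (right). Red points have an adjusted p under 0.05, grey points do not, black lines are list medians and called genes with at least a 2-fold change are named. The list of SRF targets through TCFs has the highest median (0.32 in total RNA and 0.43 in HP RNA).

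SRF's cofactors held the deepest fall of the named genes. ELK3, a TCF, had 30.9 ± 2.00 CPM with hnRNP U siRNA and 100 ± 1.58 CPM with control siRNA in total RNA, a log2 fold change of −1.70 (SE 0.05, edgeR adjusted p = 2.4e-13), and −1.75 in HP RNA (edgeR adjusted p = 3.2e-11). SCAI, a suppressor of MRTF activity, fell by 0.53 in both fractions. MRTFB, an MRTF named after its values were seen, fell by 0.45 in total RNA and 0.50 in HP RNA. MRTFA was not called in either fraction. FHL2, a LIM-domain cofactor and SRF target, rose by 0.56 in total RNA and 0.50 in HP RNA, and ELK1, another TCF, by 0.32 in both. Over SRF and its cofactors together, 3 of 8 tested rose in total RNA, SRF itself among them, and 3 fell.

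SRF targets through MRTF, a list that includes members, split into 8 rises and 9 falls of 23 tested in total RNA, and 8 and 8 in HP RNA. CCN1, a matricellular protein gene, fell by 0.68 in total RNA and 0.45 in HP RNA, and FHL1 by 0.63 in total RNA and 0.52 in HP RNA. Of 9 targets through TCFs, 5 rose and 1 fell in total RNA and 5 rose in HP RNA. Over all genes tested, 28% rose and 29.3% fell in total RNA, and 25.5% rose and 26.3% fell in HP RNA. FOS, EGR1 and EGR2 were not called in total RNA, where each was lower in experiment 1 and higher in the others. DESeq2 called only 3 of the 9 targets in each fraction. Only 3 were called in total RNA without control siRNA total replicate 3, and 3 in HP RNA without control siRNA HP replicate 2. JUNB, an AP-1 subunit, had log2 fold changes of 0.37 in total RNA and 0.43 in HP RNA. NR4A1, a nuclear receptor, had 0.35 in total RNA (edgeR adjusted p = 0.0091) and 0.46 in HP RNA (edgeR adjusted p = 0.0097). Its HP call was lost with DESeq2 (adjusted p = 0.1), without hnRNP U siRNA HP replicate 3 (edgeR adjusted p = 0.058) and without control siRNA HP replicate 2 (edgeR adjusted p = 0.056). MCL1, a survival factor, was the one that fell, by 0.13 in total RNA (edgeR adjusted p = 0.012, and 0.091 without hnRNP U siRNA total replicate 3).

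Of 24 genes of monomer binding and turnover, 5 rose and 10 fell in total RNA and 4 rose and 10 fell in HP RNA. CFL2, the second cofilin, had 70.6 ± 1.73 CPM with hnRNP U siRNA and 110 ± 1.85 CPM with control siRNA in total RNA, a log2 fold change of −0.64 (edgeR adjusted p = 1.3e-09), where CFL1 rose. TMSB10, a thymosin that sequesters monomers, rose by 0.31 in total RNA and 0.44 in HP RNA, and CAP2, a cyclase-associated protein, fell by 0.76 in total RNA and 0.71 in HP RNA. PFN2, the profilin of neurons and other cells, rose by 0.26 in total RNA and 0.16 in HP RNA. Its HP call was lost without hnRNP U siRNA HP replicate 1 or 3 or control siRNA HP replicate 3 (edgeR adjusted p = 0.14, 0.061 and 0.16).

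The Arp2/3 complex, which nucleates branches, had 1 subunit far from the rest. ARPC5 had 49.6 ± 0.855 CPM with hnRNP U siRNA and 103.9 ± 4.31 CPM with control siRNA in total RNA, and 58.8 ± 1.54 CPM with hnRNP U siRNA and 123.6 ± 12.1 CPM with control siRNA in HP RNA. Its log2 fold changes were −1.07 and −1.11. ARPC4 rose by 0.29 in total RNA and 0.21 in HP RNA, and CYFIP2, of the WAVE complex, fell by 0.62 in total RNA and 0.63 in HP RNA. Over the complex and its activators 5 of 21 rose and 8 fell in total RNA, and 2 rose and 6 fell in HP RNA. ABI2 was called in total RNA (0.16) and had 0.01 in HP RNA.

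Formins and Ena/VASP proteins, which extend unbranched filaments, formed 1 list, with 2 rises and 7 falls of 14 in total RNA and 3 and 7 in HP RNA. The Ena/VASP genes ENAH, VASP and EVL were 3 of the 7 falls in each fraction. DIAPH1 rose by 0.35 in total RNA and 0.27 in HP RNA, while DIAPH3 fell by 0.58 in total RNA and 0.50 in HP RNA and INF2 by 0.55 in total RNA and 0.60 in HP RNA. FHOD1 rose by 0.19 in total RNA and 0.18 in HP RNA. The HP call of FHOD1 was lost without hnRNP U siRNA HP replicate 2, control siRNA HP replicate 1 or control siRNA HP replicate 3 (edgeR adjusted p = 0.11, 0.066 and 0.055).

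Capping and severing proteins had 2 rises and 7 falls of 14 in each fraction. TMOD2, a tropomodulin that caps pointed ends, had 10.5 ± 1.75 CPM with hnRNP U siRNA and 22.9 ± 1.43 CPM with control siRNA in total RNA, a log2 fold change of −1.13, and −1.30 in HP RNA. GSN, the severing protein gelsolin, fell by 0.45 in total RNA and 0.31 in HP RNA, whereas SVIL rose by 0.40 in total RNA and 0.42 in HP RNA and CAPG by 0.23 in total RNA and 0.28 in HP RNA. These last 3 belong to the same gelsolin family.

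Among crosslinkers, which bundle filaments or fix them to membranes, 5 rose and 10 fell of 21 in total RNA and 5 rose and 9 fell in HP RNA. PLS3, the bundling protein plastin 3, had 47.3 ± 1.19 CPM with hnRNP U siRNA and 101 ± 3.17 CPM with control siRNA in total RNA, a log2 fold change of −1.10, and −1.11 in HP RNA. PLS1 fell by 0.66 in total RNA and 0.64 in HP RNA. FSCN1, the bundler fascin, rose by 0.27 in total RNA and 0.26 in HP RNA. SPTBN1, a spectrin, rose by 0.21 in total RNA and had 0.13 in HP RNA (edgeR adjusted p = 0.17).

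Of the 4 tropomyosin genes, TPM3 alone was called in total RNA, with 498.5 ± 11.1 CPM with hnRNP U siRNA and 422.2 ± 11.9 CPM with control siRNA, a log2 fold change of 0.24. In HP RNA TPM3 and TPM2 were called, at 0.21 and 0.22. The myosin II genes MYH14 and MYL12A fell where MYH9 rose. MYH14, the heavy chain of non-muscle myosin IIC, had 58.9 ± 4.97 CPM with hnRNP U siRNA and 97.1 ± 1.49 CPM with control siRNA in total RNA, a log2 fold change of −0.72, and −0.56 in HP RNA. MYL12A, a regulatory light chain, fell by 0.53 in total RNA and 0.42 in HP RNA.

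Focal adhesion proteins had 6 rises and 11 falls of 21 in total RNA, and 4 and 11 in HP RNA. TLN2, the second talin, had 5.90 ± 0.503 CPM with hnRNP U siRNA and 15.4 ± 2.03 CPM with control siRNA in total RNA, a log2 fold change of −1.38, and −1.24 in HP RNA. PARVB, a parvin that binds integrin-linked kinase, had log2 fold changes of −1.13 in total RNA and −1.21 in HP RNA. CSRP1 rose by 0.31 in total RNA and 0.25 in HP RNA. FERMT1, a kindlin of epithelia, rose by 0.24 in total RNA and had 0.11 in HP RNA (edgeR adjusted p = 0.26).

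The last list held genes of nuclear actin, the form hnRNP U has been reported to bind. Of 11 tested, 4 rose and 1 fell in total RNA and 3 rose and 3 fell in HP RNA. With the experiment as replicate block, 8 in place of 5 were called in total RNA. ACTR5 and ACTR8, actin-related proteins of the INO80 chromatin remodeller, rose by 0.24 and 0.34 in total RNA and by 0.55 and 0.43 in HP RNA. ACTR6 fell by 0.33 in total RNA and 0.36 in HP RNA. ACTR5 had 43.96 ± 1.37 CPM with hnRNP U siRNA and 29.3 ± 0.801 CPM with control siRNA in HP RNA. In HP/total its log2 fold change was 0.34, called by edgeR with the culture as a block (adjusted p = 0.02), as was TMSB4X, a thymosin named after its value was seen, at 0.28 (adjusted p = 0.044). Neither ratio was called without the block. TMSB4X itself fell in both fractions, and less in HP RNA. Its log2 fold changes were −0.63 in total RNA (edgeR adjusted p = 2.6e-08) and −0.38 in HP RNA (edgeR adjusted p = 0.00038).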

How the data were processed

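The deposited values are raw gene counts, which the authors obtained from poly(A)-selected directional libraries read from 1 end. Their reads were trimmed with Trim Galore and aligned to hg38 with STAR, over GENCODE genes. The STAR version and strand setting are not given in the sources used here. Names and transcripts came from GENCODE release 44, in which 62639 of 62703 identifiers were found.

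Counts were compared with edgeR 4.0.16 in R 4.3.3 (TMM, filterByExpr with a minimum count of 10, quasi-likelihood F-test, threshold 0.05 after Benjamini-Hochberg adjustment over 15920 genes) within total RNA, within HP RNA, between fractions within each siRNA, and as the interaction over 12 libraries (HP/total). Samples were grouped by the labels. The libraries were said to come from independent experiments. Intervals are 95%. Fits were tested on simulated data. Library totals were 30305012 to 39761103 counts without molecular identifiers, so counts are not independent molecules.

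Named list genes were up to 2 per direction and list with adjusted p under 0.05 in total RNA, a mean log2 CPM no lower than 3 and 1 direction in all 3 experiments. Exceptions are stated. The members and lists were chosen with earlier results of these data known. Alternatives were DESeq2 1.42.0, other scaling, filters and fits, replicate blocks and leaving out each library. Total and HP RNA libraries with the same title prefix were taken to share a culture. Same-numbered libraries of different siRNAs had correlations of deviations from −0.00841 to 0.0516. HP and total RNA libraries of the same culture had 0.0444 to 0.107. Differently numbered HP and total RNA libraries of the same siRNA had −0.108 to 0.00649. The main fits used no block and so treated libraries of a culture as independent. A comparison of actin proteins was planned and is not analysed here, and the result of 1 gene list is not reported here.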

Additional observations from a re-analysis of the deposited data

How the results depend on the processing

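The number of members called kept within 1.5 times its value under all 76 combinations of comparison and alternative. Of 760 member fold changes, 3 lost and 5 gained a call and none that was called in either fit reversed. Of 321 values called in neither, 26 changed sign. SRF in total RNA and HP RNA and TPM4 in HP RNA account for 7 of those 8 changes, and SRF in HP against total RNA for the other. The cause was not tested. Leaving out a library gave log2 fold changes from 0.388 to 0.449 for ACTB and from −0.353 to −0.317 for ACTG1 in total RNA. The log2 ACTB/ACTG1 ratio stayed between 0.741 and 0.777 in total RNA and between 0.722 and 0.771 in HP RNA. With pseudogene counts added it was 0.753 in total RNA and 0.744 in HP RNA, as without.

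With the experiment as replicate block, TPM4 in HP RNA passed (−0.14, edgeR adjusted p = 0.0048). Members called in HP/total stayed at 0 under either block. Over all genes, HP/total had 26 calls (13 higher, 13 lower), 78 with the experiment block, 140 with the culture block, 49 with DESeq2 (17 higher, 32 lower), 28 with DESeq2 size factors (11 higher, 17 lower), 26 with upper-quartile factors (10 higher, 16 lower) and 61 without a filter. Over the lists HP/total had 0 calls, 1 with the experiment block and 2 with the culture block. In the nuclear actin list 8 genes in place of 5 were called in total RNA with the block.

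Depth limits ACTA2 most, at 70 to 335 counts per library.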
